A study of Mus musculus with 4 samples.

Results

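This report describes genes of hypertrophic chondrocytes and osteoblasts in the trachea of mouse embryos. The genes were chosen by symbol from a list of 10: Ibsp, Panx3, Alpl, Runx2, Spp1, Sp7, Col10a1, Ihh, Pth1r and Mef2c. In the table used here, 8 of the 10 had at least 1 probe set paired with that symbol, with 15 probe sets in all, out of 18193 genes and 45101 probe sets. Runx2 and Spp1 were not analysed here. Each gene is represented by its brightest probe set, judged by the mean of log2(signal + 16) over the arrays, with no filter on level. The list was drawn up with the values of these arrays known, so the values below are a description.

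The samples were tracheas of C57BL/6 embryos at embryonic day 16, comprising 2 samples labelled a1H knockout and 2 labelled wild type, numbered 1 and 2 in each genotype, and 1 Affymetrix array per sample. The study set out to compare homozygous knockout tracheas with wild-type ones. The name a1H is read here as the T-type calcium channel subunit alpha-1H, the product of Cacna1h. The labels name no Cre or tissue-restricted deletion and do not say whether embryos were pooled or came from separate litters, so the spread behind each p-value is that among these samples only and can be technical. Values are MAS5 signals, a linear brightness summary per probe set that the authors scaled to a common trimmed mean on each array, and 2 arrays a group limit the precision.

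Cacna1h itself read 981 and 631 on the labelled knockout arrays, against 630 and 538 on the wild-type arrays, so it was not lower where the label says knockout. Where its probe set lies relative to the deleted part was not known, so this reading does not check the genotype labels, on which every direction below rests. Array medians were 426 and 320 for labelled knockout and 459 and 416 for wild type. The cartilage markers Col2a1, Acan, Col9a1, Matn1, Hapln1, Col11a2, Sox9, Snorc, Ucma and Comp, and the 7 airway epithelial markers, were all above the level of genes taken as silent on every array. That level was the 95th percentile of 39 olfactory receptor genes, sensory receptors of the nose, and it was 49.3 and 81.5 on the labelled knockout arrays and 124 and 86.2 on the wild-type arrays. Labelled knockout replicate 2 carried placental transcripts. Tpbpa, a marker of the junctional zone of the placenta, was at 136 and 37380 in labelled knockout, against 126 and 374 in wild type. Another array was high for skin: Flg read 15.1 and 2.84 on the labelled knockout arrays, against 15.7 and 4001 on the wild-type arrays. The main results that rest on labelled knockout replicate 2 are given with and without that array.

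Cartilage that is to be replaced by bone passes through a hypertrophic stage, in which chondrocytes enlarge, secrete type X collagen and release Indian hedgehog. Indian hedgehog and parathyroid hormone-related protein form a feedback loop that sets when chondrocytes become hypertrophic, and the RUNX, MEF2 and SP7 transcription factors drive hypertrophy and osteoblast formation. Osteoblasts then lay down a matrix rich in acidic phosphoproteins, on which mineral forms. The rings of the trachea are hyaline cartilage that stays unmineralised through fetal life.

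The promoters of Ibsp and Col10a1 are shown because these genes encode matrix proteins of mineralising tissue and both were brightest on the same array. That array was the brightest for 7 of the 8 genes. Both sequences come from RefSeq on the build GRCm38.p6, run 5′ to 3′ on the plus strand from 250 bases before the gene's start to 50 after it, and carry in capitals the letters of a TATA box (TATAAA, or TTTATA where it lies on the other strand) and of a homeodomain core (TAATTA).
Ibsp, chr5:104299037-104299336: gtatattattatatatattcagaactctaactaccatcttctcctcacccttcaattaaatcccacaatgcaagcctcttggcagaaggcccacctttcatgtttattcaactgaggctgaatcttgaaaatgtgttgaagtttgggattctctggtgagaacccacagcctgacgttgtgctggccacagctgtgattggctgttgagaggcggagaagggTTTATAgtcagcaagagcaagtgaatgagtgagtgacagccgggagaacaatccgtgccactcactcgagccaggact
Col10a1, chr10:34389731-34390030: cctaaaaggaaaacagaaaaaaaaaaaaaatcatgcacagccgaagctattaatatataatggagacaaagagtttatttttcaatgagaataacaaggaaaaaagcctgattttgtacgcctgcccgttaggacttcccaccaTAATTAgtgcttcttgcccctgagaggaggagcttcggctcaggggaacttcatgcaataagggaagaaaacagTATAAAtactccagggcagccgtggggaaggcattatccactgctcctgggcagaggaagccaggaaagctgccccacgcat
In Ibsp the TATA letters lie on the opposite strand and begin 28 bases before the start, and in Col10a1 they lie on the same strand and begin 32 bases before it. Col10a1 also holds TAATTA beginning 106 bases before the start. Over the first listed promoter of 27025 genes, 14.2% held TATAAA on either strand, 5.31% held TAATTA and 16.9% held TGTGGT, the core letters bound by RUNX factors. TGTGGT on either strand was in none of the promoters of the 6 genes of the 8 that the table lists, namely Alpl, Col10a1, Ibsp, Ihh, Mef2c and Pth1r. Of these, Alpl and Mef2c also held TATA letters, and Mef2c and Pth1r held TAATTA, not always in the first listed promoter. The motifs do not overlap each other in these windows, and a match or its absence is a description of the letters only.

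Ibsp, Panx3 and Col10a1 differed most among the arrays, with ranges of 5.38, 4.59 and 4.12 on the log2(signal + 16) scale, and labelled knockout replicate 2 was the array on which they were bright. Ibsp encodes bone sialoprotein, an acidic matrix glycoprotein that binds integrins and mineral. It read 175 and 5780 on the labelled knockout arrays, against 126 and 123 on the wild-type arrays. Its level was high on 1 array alone, 33.0-fold over the next, while the other 3 arrays lay close together and, in wild type, not far above the olfactory receptor level. In rank among the 18193 genes it stood at the 25.9th and 84.9th percentiles on the labelled knockout arrays and at the 20.8th and 21.4th on the wild-type arrays. The dimmer of its 2 probe sets read 114 and 485 in labelled knockout, against 129 and 163 in wild type, and was likewise highest on labelled knockout replicate 2.

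Panx3 encodes pannexin 3, a channel protein of hypertrophic chondrocytes and osteoblasts that passes ATP and calcium. It read 42.6 and 1394 on the labelled knockout arrays, against 49.2 and 85.7 on the wild-type arrays. It was above the olfactory receptor level on labelled knockout replicate 2 alone and read at or below that level on the other 3. On wild-type replicate 2 it was only just below the level of 86.2. Its other 2 probe sets stayed dim on every array, the first at 39.9 and 68.7 in labelled knockout against 45.0 and 29.7 in wild type, and the second at 11.5 and 19.2 in labelled knockout against 8.63 and 69.1 in wild type, so the high reading rests on 1 of 3 probe sets. That probe set is of the s_at kind, which can bind more than 1 transcript.

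Alpl encodes tissue-nonspecific alkaline phosphatase, which removes the mineralisation inhibitor pyrophosphate. It read 787 and 1149 on the labelled knockout arrays, against 750 and 571 on the wild-type arrays. The groups did not overlap, but labelled knockout replicate 1 stood only just above wild-type replicate 1. Col10a1 encodes type X collagen, the collagen that defines hypertrophic cartilage. It read 21.2 and 423 on the labelled knockout arrays, against 122 and 9.31 on the wild-type arrays. Only labelled knockout replicate 2 was above the olfactory receptor level, and below that level the order of the other 3 arrays cannot be read. The reading of 122 on wild-type replicate 1 was only just below the level of 124 on that array.

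**Figure D1:**
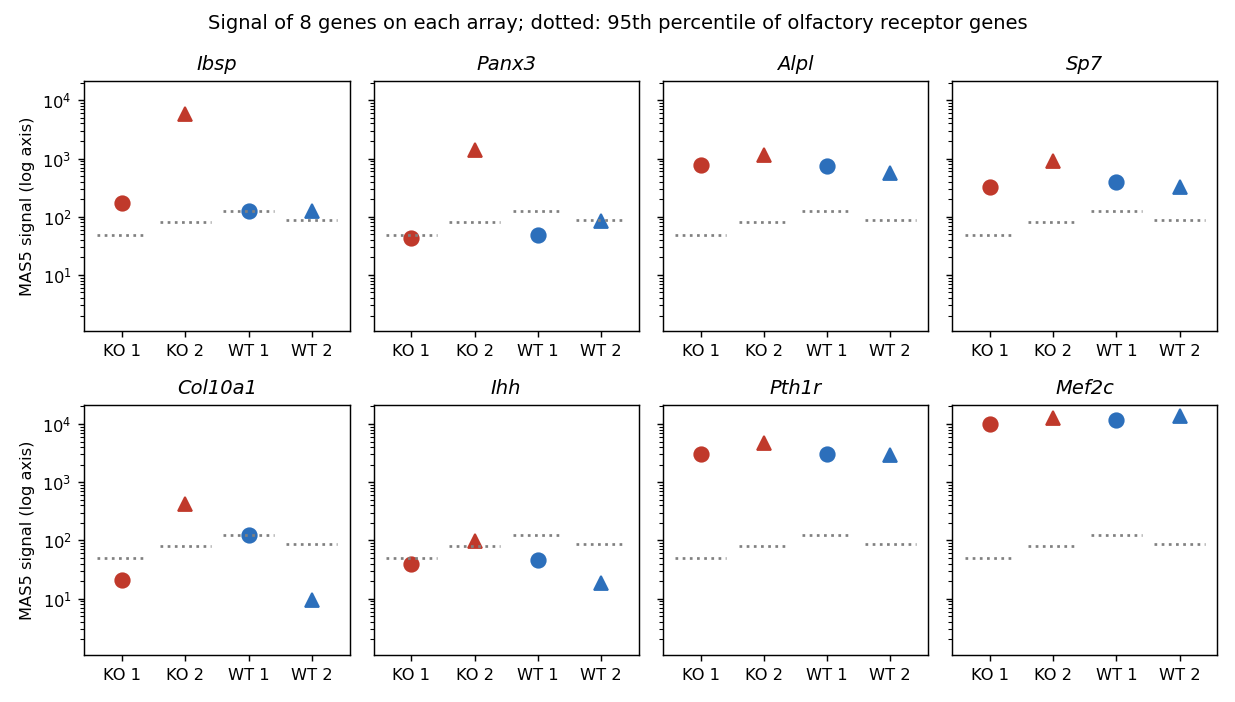
MAS5 signal on a log axis of the 8 genes on each of the 4 arrays, labelled knockout (KO, red) left of wild type (WT, blue), circles for replicate 1 and triangles for replicate 2; 1 point is 1 array and dotted lines mark the 95th percentile of olfactory receptor genes on that array. Ibsp at 5780 and Panx3 at 1394 stand far above the other 3 arrays on KO 2, and Mef2c is level.

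Ihh, the Indian hedgehog ligand of prehypertrophic chondrocytes, read 39.4 and 98.3 on the labelled knockout arrays, against 45.7 and 18.8 on the wild-type arrays. It passed the olfactory receptor level on labelled knockout replicate 2 alone, and by little. Pth1r, the receptor of parathyroid hormone and its related protein, read 3099 and 4641 on the labelled knockout arrays, against 3014 and 2892 on the wild-type arrays. It was well above the dim level on all 4 arrays, and 3 of them lay within 0.10 of each other on the log2 scale, with labelled knockout replicate 2 higher.

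Of the transcription factors, Sp7, also called osterix and required for osteoblasts to form, read 326 and 906 on the labelled knockout arrays, against 398 and 331 on the wild-type arrays. Again 1 array was high, 2.28-fold over the next, and the other 3 spanned 0.27 on the log2 scale. Mef2c, a factor of chondrocyte hypertrophy that also acts in muscle, endothelium and neurons, was by far the brightest of the 8. It read 10021 and 12884 on the labelled knockout arrays, against 11862 and 13671 on the wild-type arrays, and the groups overlapped. Its 5 probe sets had log2 differences of labelled knockout minus wild type from -0.16 to 0.18. Mef2c is not restricted to skeletal cells, and the summed signal of 6 skeletal muscle markers was 61408 and 96930 in labelled knockout and 60769 and 85117 in wild type. The part of muscle in the Mef2c level was not tested.

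No gene passed the test of labelled knockout against wild type. In limma with Benjamini-Hochberg adjustment over all 18193 genes, 0 had an adjusted p under 0.05, 0% of those tested, and 849 had an unadjusted p under 0.05. Of the 8 genes 0 passed, and 0 had an unadjusted p under 0.05. Ibsp averaged 2977 ± 3963 in labelled knockout and 125 ± 2.28 in wild type (SD, n = 2 each). Its log2 difference was 2.90, with a 95% half-width of 3.34 and an adjusted p of 0.886 in limma. The log2 differences of Panx3, Col10a1, Ihh, Sp7, Alpl and Pth1r were 1.82, 1.11, 0.78, 0.57, 0.53 and 0.36, with half-widths of 3.22, 3.04, 1.40, 1.22, 0.74 and 0.55. With all probe sets of a gene averaged, the difference of Ibsp was 1.79 and that of Panx3 0.55. For Mef2c the difference was -0.16 with a half-width of 0.53. All 8 intervals thus held 0, and those of Ibsp, Panx3 and Col10a1 were wide because arrays of the same genotype lay far apart.

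The direction over the 8 genes rested on labelled knockout replicate 2. Their median log2 difference was 0.68, against -0.02 over all genes, and 7 of the 8 were higher in labelled knockout. For replicate number 1 alone the median was -0.15, against -0.02 over all genes, and for number 2 alone it was 1.56, against 0.00 over all genes. Without labelled knockout replicate 2 the median was -0.04, against 0.00 over all genes, 4 of the 8 were higher, and 0 passed, where 0.0165% of all genes did. Ibsp then had a log2 difference of 0.44 (SE 0.58) and Panx3 -0.47 (SE 0.66). Without wild-type replicate 1 the median of the 8 was 0.96, against 0.02 over all genes, and 7 were higher. Without wild-type replicate 2 it was 0.35, against -0.06 over all genes, and 6 were higher. Without labelled knockout replicate 1, where the lone array is assumed to vary like the wild-type arrays, Ibsp had 5.37 (SE 0.41, adjusted p = 1.67e-05) and Panx3 4.11 (SE 0.57, adjusted p = 0.00334) in limma, and these 2 were called higher, as were 0.396% of all genes.

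**Figure D2:**
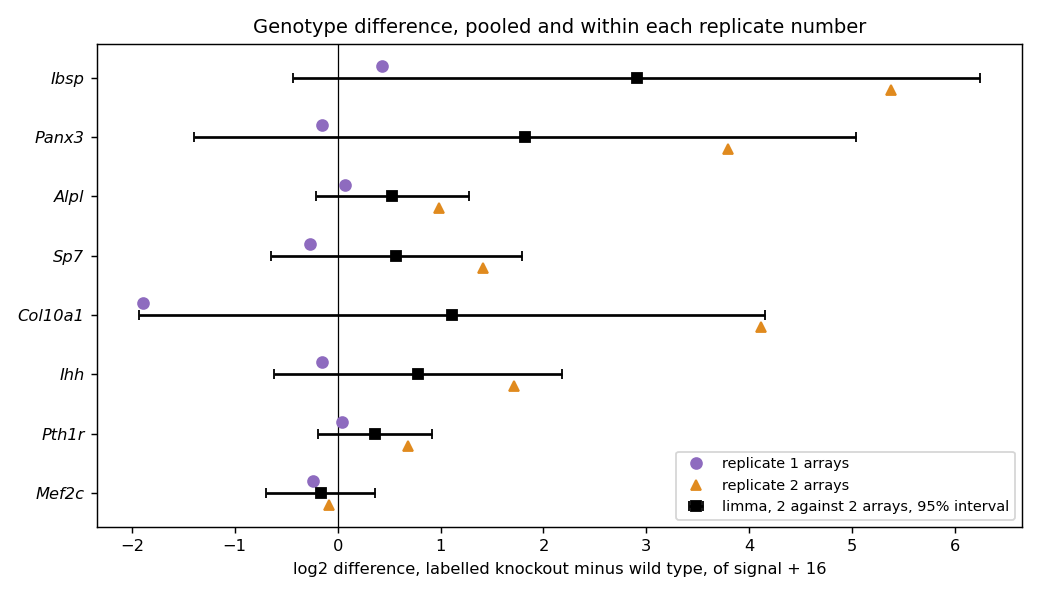
Log2 difference in signal + 16, labelled knockout minus wild type, for each of the 8 genes: black squares with 95% intervals are the limma fit to all 4 arrays, circles the replicate 1 arrays and triangles the replicate 2 arrays. The triangles reach 5.38 for Ibsp, 4.12 for Col10a1 and 3.79 for Panx3, while the circles of these genes lie at 0.43, -1.89 and -0.15. The circles of Col10a1 and Panx3 compare readings below the olfactory receptor level, that of Col10a1 in wild type only just below it. Their triangles rest on wild-type readings of 9.31 and 85.7, below that level too, the second only just.

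The groups did not overlap for 3 of the 8, Ibsp, Alpl and Pth1r, all higher in labelled knockout, where 16.8% of all genes were higher without overlap. None of the 8 was lower without overlap, against 19.1% of all genes. Without labelled knockout replicate 2, 3 of the 8 were higher without overlap and 3 were lower. Of all 18193 genes, 6255 and 6011 then were, as a lone array makes overlap rarer. Labelled knockout replicate 2 was the highest of the 4 arrays for 7 of the 8, Mef2c being the exception, and for 27.3% of all genes. On the log2(signal + 16) scale 4 of the 8, Ibsp, Panx3, Sp7 and Col10a1, were at least 2-fold over every other array there, as were 1.08% of all genes. For labelled knockout replicate 1 that share of all genes was 0.830%. For wild-type replicates 1 and 2 it was 0.951% and 1.26%. With arrays centred on their medians, which moved the median difference of all genes to 0.21, labelled knockout replicate 2 was highest for 8 of the 8 and for 59.2% of all genes, and the median of the 8 was 0.91. With quantile normalisation it was highest for 7 of the 8 and 38% of all genes, and when every probe set of a gene was averaged, for 8 of the 8 and 22.2%.

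The technical measures of the arrays differed too. The spiked hybridisation controls had geometric means of 5449 and 16126 on the labelled knockout arrays and 5518 and 13082 on the wild-type arrays, so the number, more than the genotype, went with this measure. The 3' to 5' signal ratio of actin, which reflects RNA integrity and the amplification, was 1.90 and 1.97 in labelled knockout and 1.69 and 1.66 in wild type. For Gapdh the ratio was 1.36 and 1.61 in labelled knockout and 1.26 and 1.40 in wild type, so both ratios were highest on labelled knockout replicate 2. The part of RNA quality in the results was not tested. Whether replicate numbers mark a batch is not given in the sources used here.

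Other genes of bone matrix and mineral held 2 that were at least 2-fold over every other array on labelled knockout replicate 2. The share over all genes was 1.08%. Of 16 measured genes of the 20 on that list 0 passed the test, 6 were higher and 10 lower, and the median log2 difference was -0.01, against -0.02 over all genes. Ifitm5, a membrane protein of osteoblasts, read 217 and 867 on the labelled knockout arrays, against 228 and 118 on the wild-type arrays. Dmp1, an acidic phosphoprotein of osteocytes and dentin, read 935 and 1912 on the labelled knockout arrays, against 924 and 733 on the wild-type arrays. On labelled knockout replicate 2 Ifitm5 was 3.81-fold and Dmp1 2.04-fold over the next array, against 33.0-fold for Ibsp. Both were above the olfactory receptor level on all 4 arrays. The Dmp1 probe set is of the x_at kind, which can bind other transcripts. Without labelled knockout replicate 2 the log2 differences of Ifitm5 and Dmp1 were 0.36 and 0.18. In gene order on chromosome 5 of GRCm38.p6, Dmp1 and Mepe are the protein-coding neighbours on either side of Ibsp, and Dspp lies beyond Dmp1.

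Mepe and Dspp, of the same family of acidic phosphoproteins, were dim. Mepe, a matrix phosphoglycoprotein of osteocytes, read 4.86 and 85.3 in labelled knockout, against 45.3 and 62.2 in wild type, and was near or below the olfactory receptor level throughout. Dspp, the sialophosphoprotein of dentin, read 4.26 and 1.87 in labelled knockout, against 12.2 and 13.4 in wild type, below that level on all 4 arrays. Omd, the osteoadherin proteoglycan, read 1958 and 2134 in labelled knockout, against 3692 and 2614 in wild type, a log2 difference of -0.60 (SE 0.22). Slc20a1, a phosphate transporter, read 2975 and 3112 in labelled knockout, against 1845 and 2495 in wild type, a log2 difference of 0.50 (SE 0.21). Neither passed, although the groups did not overlap in either. Of the 16 measured genes of bone matrix and mineral, 3 were lower and 4 higher without overlap, against 19.1% and 16.8% of all genes.

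Genes of hypertrophic cartilage remodelling had 0 of 11 members past the test, with 6 higher and 5 lower and a median log2 difference of 0.01. Mmp13, the collagenase of late hypertrophic cartilage, read 32.9 and 137 on the labelled knockout arrays, against 10.8 and 31.6 on the wild-type arrays. It was the only gene of that list at least 2-fold over every other array on labelled knockout replicate 2, and it was dim on the other 3. Tnfrsf11b encodes osteoprotegerin, the decoy receptor that restrains osteoclast formation. It read 387 and 376 on the labelled knockout arrays, against 697 and 707 on the wild-type arrays. Its arrays agreed closely within each genotype, the log2 difference was -0.82 within replicate number 1 and -0.88 within number 2, and the adjusted p was 0.886 in limma (log2 difference -0.85, SE 0.30).

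Vegfa, the vascular growth factor released by hypertrophic chondrocytes, read 3952 and 2290 in labelled knockout, against 5035 and 4771 in wild type. Fgfr3, a receptor that restrains growth-plate chondrocytes, read 3426 and 2381 in labelled knockout, against 4697 and 3444 in wild type. Both were lower without overlap, with log2 differences of -0.70 and -0.49, and neither passed. Of the 11 genes of hypertrophic cartilage remodelling, 5 were lower and 1 higher without overlap, against 19.1% and 16.8% of all genes. Cdkn1c, a cell cycle inhibitor expressed in hypertrophic chondrocytes and in placenta, read 6635 and 18641 in labelled knockout, against 6655 and 9943 in wild type, again highest on labelled knockout replicate 2.

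Genes of hedgehog signalling in general, the pathway of Indian hedgehog, made a further list. Pthlh, which encodes parathyroid hormone-related protein, was on the list but not measured, so the list does not read that signal. Of 12 measured genes of the 14 on that list 0 passed, 5 were higher and 7 lower, the median log2 difference was -0.10, and labelled knockout replicate 2 was the highest array for 0 of the 12, against 27.3% over all genes. Ptch1, the hedgehog receptor and a target of the pathway, read 10202 and 12448 in labelled knockout, against 10547 and 16004 in wild type. Hhip, a hedgehog-binding inhibitor and target, read 2435 and 1440 in labelled knockout, against 2709 and 2792 in wild type, a log2 difference of -0.55 (SE 0.27). Gas1 and Cdon, co-receptors of hedgehog ligands, had log2 differences of -0.24 and -0.28, and none of these 4 passed.

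Among 21 measured of 22 other transcription regulators of hypertrophy and osteoblasts 0 passed, 10 were higher and 11 lower, and the median log2 difference was -0.06. Runx1, a RUNX factor of early chondrocytes and blood cells, read 1581 and 936 in labelled knockout, against 1809 and 2063 in wild type. Hdac5, a histone deacetylase that binds MEF2 factors, read 1241 and 1082 in labelled knockout, against 827 and 847 in wild type. Foxa3 and Lef1 had log2 differences of -0.42 and 0.48, each with overlapping groups. Labelled knockout replicate 2 was highest for 5 of the 21, near the 27.3% over all genes, and at least 2-fold over the other arrays for 0, against 1.08% over all genes. Dlx3, a homeodomain factor of bone, skin and placenta, read 284 and 895 in labelled knockout, against 500 and 372 in wild type, and was 1.79-fold over the next array on labelled knockout replicate 2.

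**Figure D3:**
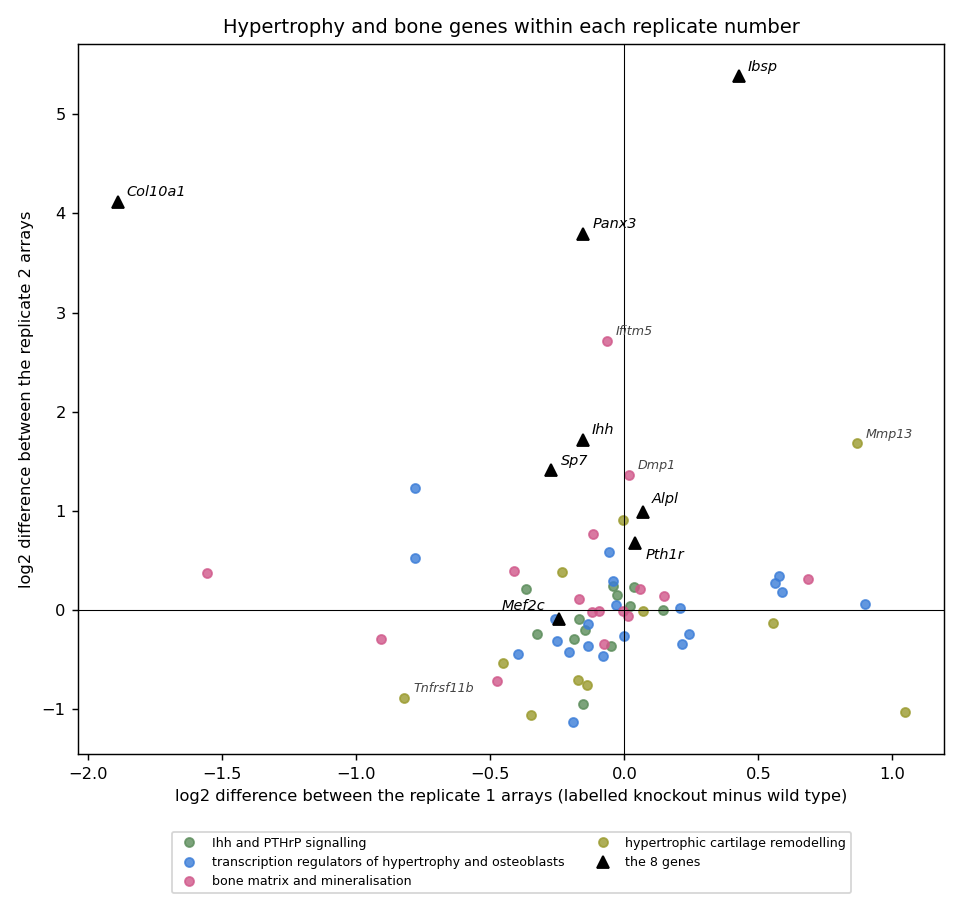
Log2 difference in signal + 16, labelled knockout minus wild type, for replicate number 1 (horizontal) and number 2 (vertical), for the 8 genes (triangles) and 60 genes of 4 related lists (circles, coloured by list). Ibsp, Col10a1, Panx3 and Ifitm5 lie high on the vertical axis, at 5.38, 4.12, 3.79 and 2.72, and Tnfrsf11b lies low on both, at -0.82 and -0.88. The wild-type readings of Col10a1 and Panx3 were below the olfactory receptor level, only just so for Col10a1 on replicate 1 and Panx3 on replicate 2.

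Markers of cells that could carry these transcripts were set beside them. The summed signal of the 10 cartilage markers was 67591 and 96054 in labelled knockout and 86667 and 103083 in wild type, and labelled knockout replicate 2 was highest for Col2a1 and Comp only. Of these 10, 5 were lower in labelled knockout without overlap, against 19.1% of all genes, and 0 passed the test. The sum is dominated by the brightest genes, and Ucma, a secreted cartilage protein, read 2705 and 3610 in labelled knockout, against 7407 and 7955 in wild type. Osteoclast markers summed to 3006 and 3135 in labelled knockout and 2443 and 2849 in wild type, with 2 of the 8, the fusion genes Dcstamp and Ocstamp, at or below the olfactory receptor level on all 4 arrays. Macrophage markers summed to 19438 and 26430 in labelled knockout and 18450 and 22722 in wild type. Markers of tooth enamel, from an organ in which Dmp1 and Dspp are also made, summed to 134 and 174 in labelled knockout and 191 and 207 in wild type. Of these 3, Amelx read 112 and 146 in labelled knockout and 149 and 152 in wild type, above the olfactory receptor level throughout. The other 2 were at or below it on all 4 arrays. The part of tooth tissue was not tested.

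Placental markers were high on the array on which Ibsp, Panx3, Sp7 and Col10a1 were high. All 3 measured members of that list, Tpbpa, Prl8a9 and Psg17, were highest on labelled knockout replicate 2, and they summed to 231 and 70513 in labelled knockout, against 181 and 442 in wild type. Salivary gland markers summed to 15300 and 8495 in labelled knockout and 1042 and 32695 in wild type, and skin markers to 1998 and 10702 in labelled knockout and 1961 and 26016 in wild type, both highest on wild-type replicate 2. Thymocyte markers summed to 20337 and 8351 in labelled knockout and 3519 and 10128 in wild type. The part of any of these tissues in the signal of Ibsp, Panx3, Sp7 or Col10a1 was not tested, and in whole-tissue RNA fewer cells of a type and less RNA per cell cannot be told apart.

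**Figure D4:**
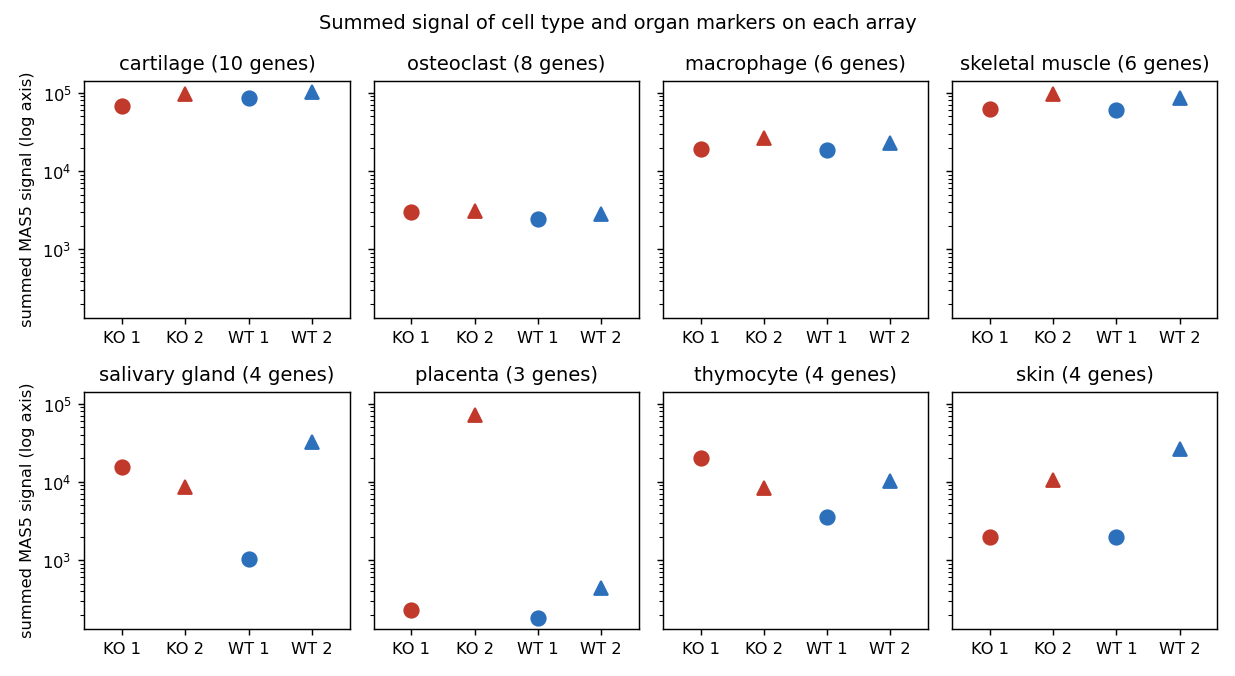
Summed MAS5 signal on a log axis of marker genes of 8 cell types or organs on each array, labelled knockout (KO, red) left of wild type (WT, blue), circles for replicate 1 and triangles for replicate 2. Placental markers reach 70513 on KO 2 alone, while the cartilage sums run from 67591 to 103083 over the 4 arrays.

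The genes most like each of the 8 in pattern were found by the smallest distance between centred log2 profiles over the 4 arrays, among genes with at least 0.5 times its range. For Ibsp the nearest 5 of 359 candidates were Psg17, Prl3c1, Prl7a1, Prl8a1 and Ctsm, known as placental genes. Psg17, a pregnancy-specific glycoprotein, read 90.1 and 3254 in labelled knockout, against 52.0 and 63.9 in wild type, at a distance of 0.21. For Panx3 the nearest was Sct, the hormone secretin, at 101 and 3602 in labelled knockout and 158 and 223 in wild type, and the placental Prl8a1 and Prl7c1 were among its nearest 5. For Sp7 the nearest 5 of 8078 were Gm5891, Mymx, Itga2b, Taf7l2 and Ifi202b. Of these Mymx, a muscle fusion protein, read 5161 and 13071 in labelled knockout and 6144 and 5096 in wild type. For Col10a1 the nearest 5 of 978 were Dph1, Gkn1, Pla2g4d, Gzmd and Ceacam15, the first at a distance of 0.81. For Ihh the nearest was Gna15, at 0.14, and for Mef2c it was Hdc, at 0.02. With 4 arrays, of which 1 sets the pattern, such likeness is a description only. Distances to the fifth nearest gene were 0.77 for Ibsp, 0.94 for Panx3 and 1.02 for Col10a1. For Pth1r and Mef2c, which varied less, the fifth was at 0.055 and 0.045. For Pth1r the nearest of 15162 was Rnf216, a ubiquitin ligase, at 0.02, and for Alpl the nearest above the dim level was Klhl40, a muscle protein, at 0.07.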

How the data were processed

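RNA of 4 trachea samples was hybridised to 1 Affymetrix array each after amplification, per the labels' protocols. The authors deposited intensity values, which are linear MAS5 signals according to the submitters' processing notes, with no version or settings stated. The mean after trimming 2% at each end was 1500 on every array. Probe sets were paired with genes through the platform annotation (34945 with 1 gene, 932 with several, 9160 with none listed, 64 controls left out), and symbols were updated through gene identifiers for 34741.

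Genotypes and replicate numbers came from sample titles. The probe set brightest by mean log2(signal + 16) stood for each of 18193 genes, with no level filter. limma 3.58.1 in R 4.3.3 (lmFit, eBayes with an intensity trend, genotype as only term, all 4 arrays) gave log2 differences on the log2(signal + 16) scale, which understates dim genes, with Benjamini-Hochberg adjustment and a threshold of 0.05. An exact permutation of 2 against 2 arrays cannot give a two-sided p below 0.333. The fit was tested on simulated data. MAS5 is noisy for dim probe sets, and no detection calls were used. Figures used matplotlib 3.10.9 in Python 3.11.15.

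The genes and lists were chosen with earlier results of these data known. From each pathway list up to 4 genes with the largest difference were named, among those with a mean signal above the olfactory receptor level. Mmp13, Mepe, Dspp, Dlx3 and Ucma were named after their values were seen, and placental genes as markers or by likeness of pattern. Alternatives were the pseudocount, a level filter, quantile normalisation, centring, no trend, the mean of all probe sets, array weights, the replicate number as a block and each array left out.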

Additional observations from a re-analysis of the deposited data

How the results depend on the processing

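The count of 0 genes past the threshold held under 11 alternatives and was 136 without labelled knockout replicate 1 and 3 without replicate 2, with a range of 0 to 136 over the arrays left out in turn. Of the 8 genes, 0 passed except without labelled knockout replicate 1, where 2 did, Ibsp and Panx3 (range 0 to 2). Genes without overlap numbered 6519, 4217 with a level filter at the median, which leaves 11694 genes and 4 of the 8, and 11581 to 13604 with an array left out, where a lone array makes overlap rarer. Labelled knockout replicate 2 was highest for 3 of the 4 genes left by that filter, and for 7 or 8 of the 8 under the other scalings. Single differences turned in 7 cases: without labelled knockout replicate 2, Panx3 (-0.47), Sp7 (-0.14) and Col10a1 (-0.67); without wild-type replicate 2, Col10a1 (-0.11); and for Mef2c with centred arrays (0.068), the mean of all probe sets (0.025) and without labelled knockout replicate 1 (0.017). Averaging all probe sets of a gene gave 1.79 for Ibsp and 0.55 for Panx3, against 2.90 and 1.82. Over the arrays left out in turn the log2 differences ran from -0.47 to 4.11 for Panx3, -0.14 to 1.28 for Sp7, -0.67 to 2.89 for Col10a1 and -0.35 to 0.017 for Mef2c. Why they turned beyond the array left out was not tested. With the replicate number as a block 0 genes passed and Ibsp had a log2 difference of 2.90 (SE 1.01, adjusted p = 0.548 in limma); deviations of same-numbered arrays correlated at 0.15 across genes, which are not independent. Quantile normalisation gave a median over the 8 of 0.98, against 0.07 over all genes. Dim signals limit Ihh, Col10a1 and Panx3, which were above the olfactory receptor level on 1 array each.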
